A study of Mus musculus with 6 samples.

Results

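The enzymes that assemble triglyceride in liver were examined as 9 genes chosen by name: Gpam, Agpat2, Agpat3, Lpin1, Lpin2, Dgat1, Dgat2, Mogat1 and Pnpla3. All 9 were found among the 15960 genes of the expression table. Livers of C57BL/6 mice aged 22 weeks were profiled by RNA-seq after 14 weeks of high-fat diet, with 3 libraries from Cyp2e1-/- (knockout) and 3 from Cyp2e1+/+ (wild type) mice. CYP2E1 is a cytochrome P450 of hepatocytes, and the series concerns its interplay with the nuclear receptor PPARα in obesity. The diet, strain and age were shared by both genotypes, so no library shows the knockout on a control diet. The sources used here give neither the sex of the mice, nor how the allele was made, nor how many animals stand behind each library.

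Triglyceride is built from glycerol 3-phosphate by an acyltransferase (GPAT, encoded by Gpam for the mitochondrial enzyme), a lysophosphatidate acyltransferase (AGPAT), a phosphatidate phosphatase (lipin) and a diacylglycerol acyltransferase (DGAT). The monoacylglycerol route, with MOGAT, joins at diacylglycerol and is best known from the intestine. PNPLA3 sits on lipid droplets and acts on their lipids. In liver the product is stored in droplets or secreted in very-low-density lipoprotein, and the phosphatidate and diacylglycerol on the way also feed phospholipid synthesis.

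Values are FPKM, fragment counts scaled to transcript length and to the size of the library, as deposited by the authors. Cyp2e1 stood at 254, 247 and 271 FPKM in knockout replicates 1, 2 and 3 and at 7427, 5942 and 6071 FPKM in the wild type. Albumin reached 24938 to 33779 FPKM in the 6 libraries, while the adipocyte hormone gene Adipoq was listed at 0 in 5 of them and at 0.19 FPKM in knockout replicate 2. Replicate 1 of both genotypes stood apart. Across genes, Pearson's r of log2(FPKM + 1) was 0.985 between the replicate 1 libraries of both genotypes, 0.979 to 0.981 between replicate 1 and the others of its own genotype, and 0.991 and 0.992 between replicates 2 and 3 of knockout and wild type. The lowest of the 3 values was that of replicate 1 for 57.3% of tested genes in the knockout and 46.7% in the wild type. Results are therefore also given without it.

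None of the 8 tested enzyme genes passed the test between genotypes (limma on log2(FPKM + 1), Benjamini-Hochberg adjusted p under 0.05), where 0.762% of all 9968 tested genes did. At an unadjusted p under 0.05 there were 2 of the 8, against 9.93% of all tested genes. They were Agpat3 and Lpin2, both higher in the knockout, a direction taken by 4.04% of tested genes at that level. In these same genes every knockout value lay above every wild type value, as it did for 5.32% of tested genes. The estimate was above 0 for 6 of the 8, against 44.2% of tested genes, and the median over the 8 was 0.22, against -0.03 over all tested genes. The genes were chosen with earlier results of these data known, and these counts are a description.

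**Figure D1:**
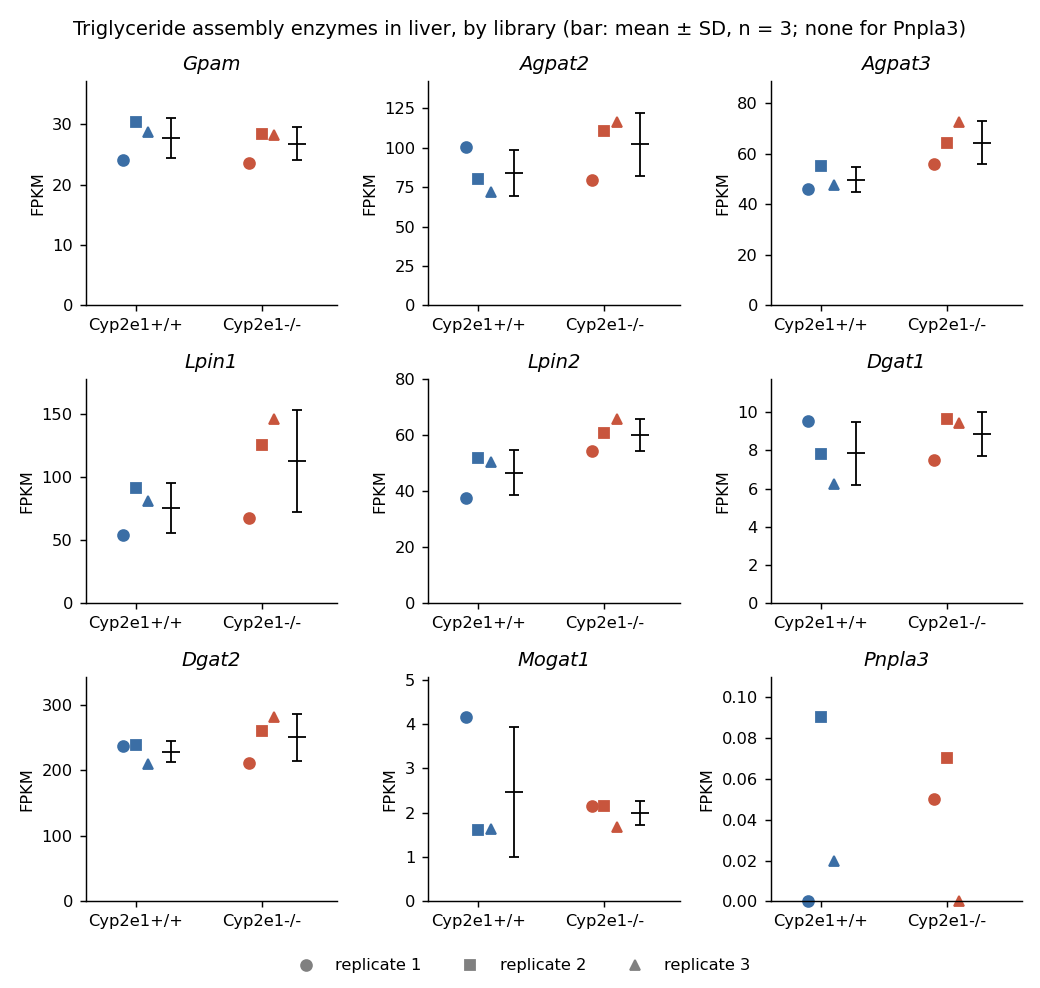
FPKM of the 9 triglyceride assembly genes (y axes, linear from 0) in each wild type and knockout library, with symbols for the replicate number and black bars for the mean and SD of 3 libraries. In Agpat3 and Lpin2 the knockout libraries all lie above the wild type libraries, in the other genes the genotypes overlap, and Pnpla3 never exceeds 0.09 FPKM.

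In order of level over the 6 libraries, Dgat2 came first with a mean of 239 ± 27.7 FPKM (SD, n = 6), 2.54 times the next gene. Lpin1 (94.4 ± 35.0 FPKM) and Agpat2 (93.2 ± 18.4) could not be ordered, since their ranges overlapped. Agpat3 (57.0 ± 10.1 FPKM) and Lpin2 (53.4 ± 9.64) overlapped as well, and the highest Agpat3 value just passed the lowest Agpat2 value. Below them Gpam (27.3 ± 2.76 FPKM), Dgat1 (8.36 ± 1.39), Mogat1 (2.23 ± 0.97) and Pnpla3 followed without overlap.

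The pathway opens with the acylation of glycerol 3-phosphate. Gpam lies on chromosome 19 (55067635 to 55127319, minus strand, GRCm38.p6) and measured 23.6, 28.5 and 28.3 FPKM in knockout replicates 1 to 3 and 24.1, 30.5 and 28.7 FPKM in the wild type. The genotypes overlapped, and replicate 1 was the lowest library of each. The log2 difference was -0.05 (SE 0.14; 95% interval -0.36 to 0.26; limma, adjusted p = 0.96). Its sign turned without knockout replicate 1 (0.04) or wild type replicate 2 (0.02).

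Gpam was not the most abundant transcript of its step. Gpat4, an enzyme of the endoplasmic reticulum, took 46.4% to 57.0% of the summed FPKM of the 4 GPAT genes in the 6 libraries and Gpam 30.8% to 39.1%. Gpat4 measured 39.1, 52.0 and 51.6 FPKM in the knockout and 34.5, 36.2 and 35.9 FPKM in the wild type. Its knockout values lay above all wild type values, and the log2 difference of 0.40 (SE 0.14) did not pass with all libraries (limma, adjusted p = 0.33) but did without replicate 1 of both genotypes (0.51; limma, adjusted p = 0.0043) and without knockout replicate 1 alone. As a share of the GPAT sum, Gpam held 31.9%, 31.2% and 30.8% in the knockout and 36.0%, 39.1% and 38.7% in the wild type. These shares were compared after the values were seen and have no test. Gpat3 averaged 11.2 ± 0.76 FPKM in knockout and 9.53 ± 1.43 in wild type livers (SD, n = 3 each; limma, adjusted p = 0.69), and Gpat2 did not exceed 0.37 FPKM.

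The AGPAT step adds the second acyl chain and gives phosphatidate. Agpat2, whose loss in people and mice causes lipodystrophy, lies on chromosome 2 (26593057 to 26604417, minus strand). It measured 79.4, 110 and 117 FPKM in knockout replicates 1 to 3 and 100, 80.0 and 72.2 FPKM in wild type replicates 1 to 3. In replicate 1 the wild type was higher, and in replicates 2 and 3 the knockout was. Over all libraries the log2 difference came to 0.27 (SE 0.18; 95% interval -0.12 to 0.66; limma, adjusted p = 0.68). Without replicate 1 of both genotypes it was 0.57 (SE 0.08; limma, adjusted p = 0.0026). The 15 alternative settings gave adjusted p-values of 0.0026 to 0.997.

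Agpat3, an acyltransferase of endoplasmic reticulum and Golgi membranes, lies on chromosome 10 (78269174 to 78352497, minus strand). Its knockout libraries held 56.0, 64.4 and 72.7 FPKM and its wild type libraries 45.97, 55.2 and 47.7 FPKM. The lowest knockout value stood just above the highest wild type value. The knockout was therefore also higher in each same-numbered pair, by 0.28, 0.22 and 0.60 on the log2 scale. Fitted over all libraries, the log2 difference was 0.37 (SE 0.14; 95% interval 0.06 to 0.67), with an adjusted p of 0.38 in limma. An exact permutation test over the 6 libraries gave p = 0.1 (two-sided), the smallest value that 3 against 3 allows. Groups that do not overlap always give this value.

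Agpat2 and Agpat3 together made up nearly all AGPAT transcripts, with 56.2% to 65.5% and 29.95% to 39.6% of the summed FPKM of Agpat1 to Agpat5. Agpat5 measured 2.76, 2.35 and 2.80 FPKM in the knockout and 3.23, 3.29 and 3.23 FPKM in the wild type. All knockout values lay below all wild type values, and its log2 difference of -0.23 did not pass (limma, adjusted p = 0.66). Agpat1 averaged 2.90 ± 0.29 FPKM in knockout livers and 2.54 ± 0.46 in wild type livers, and Agpat4 did not exceed 0.82 FPKM. Of the related lysophospholipid acyltransferase genes, Lpgat1 averaged 21.5 ± 6.00 and 25.3 ± 6.68 FPKM (log2 difference -0.23; limma, adjusted p = 0.84) and Lclat1 6.51 ± 1.17 and 6.37 ± 1.13 FPKM (0.03; limma, adjusted p = 0.99).

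Lipins turn phosphatidate into diacylglycerol, and lipin 1 is also known as a coactivator of PPARα that fasting and glucocorticoids induce in liver. Lpin1 (chromosome 12, 16535669 to 16653903, minus strand) showed the largest difference of the tested enzymes with all libraries. It measured 68.0, 125 and 146 FPKM in knockout replicates 1 to 3 and 54.0, 91.9 and 81.3 FPKM in wild type replicates 1 to 3. Replicate 1 was the lowest library of each genotype, at 0.501 of the mean of replicates 2 and 3 in the knockout and 0.623 in the wild type, and the groups overlapped. Within pairs of the same number the knockout was higher by 0.33, 0.44 and 0.84 on the log2 scale.

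The log2 difference of Lpin1 was 0.54 (SE 0.28; 95% interval -0.08 to 1.16; limma, adjusted p = 0.58). With the replicate number as a block its standard error fell to 0.13 and the interval was 0.22 to 0.85, but the adjusted p remained above the threshold (limma, 0.19). Without replicate 1 of both genotypes the difference was 0.64 (SE 0.09; limma, adjusted p = 0.0037), and over the 15 alternatives the adjusted p ran from 0.0037 to 0.976. Leaving out knockout replicate 1 alone raised the difference to 0.86 (limma, adjusted p = 0.074), and leaving out wild type replicate 1 alone lowered it to 0.31 (limma, adjusted p = 0.62).

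Lpin2, the lipin gene also abundant in liver, lies on chromosome 17 (71183532 to 71249818, plus strand). It measured 54.3, 60.6 and 65.6 FPKM in the knockout and 37.5, 51.9 and 50.5 FPKM in the wild type. All knockout values lay above all wild type values, and the pairs differed by 0.52, 0.22 and 0.37 on the log2 scale. Lpin2 differed by 0.37 on the log2 scale (SE 0.15; 95% interval 0.04 to 0.71; limma, adjusted p = 0.44). The exact permutation test gave p = 0.1 (two-sided), as it must where the groups do not overlap. Lpin3 averaged 1.07 ± 0.18 FPKM in knockout and 0.97 ± 0.07 in wild type livers (SD, n = 3 each).

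Lpin1 took 55.2% to 68.6% of lipin transcripts. The lipin sum was 174 ± 46.02 FPKM in the knockout and 123 ± 27.5 in the wild type, a ratio of 1.41. The same ratio was 1.23 for the AGPAT genes, 1.17 for the GPAT genes and 1.10 for the DGAT genes, and 0.783 for the far less abundant MOGAT genes. These sums have no test.

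**Figure D2:**
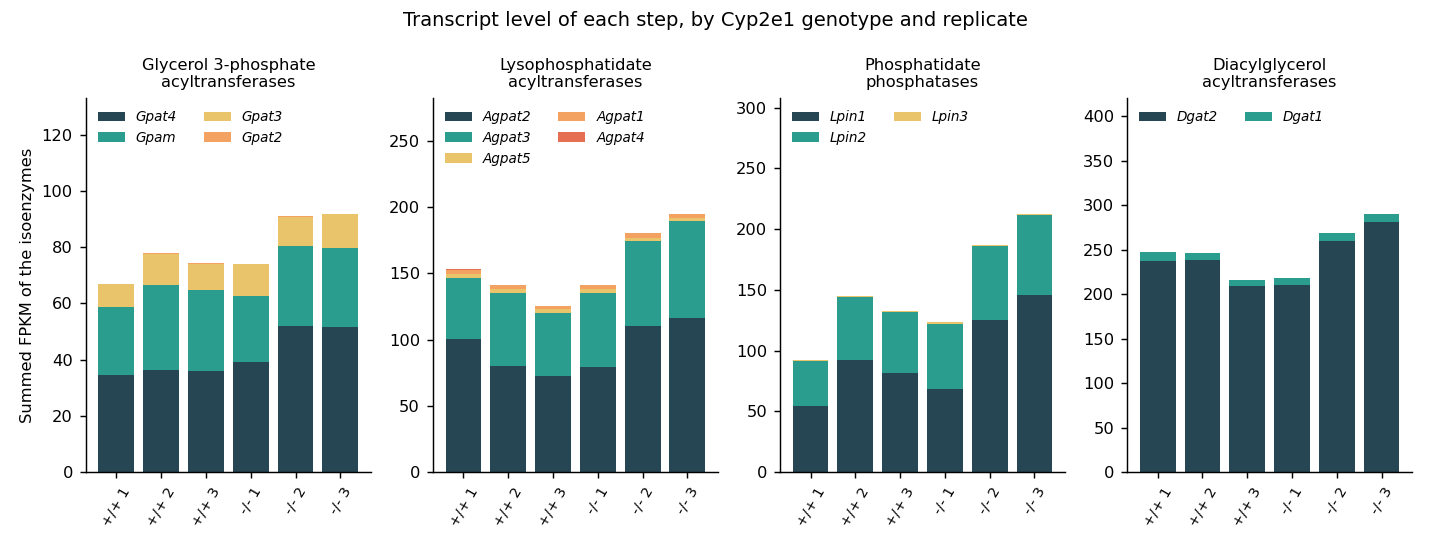
Summed FPKM (y axes, linear from 0) of the isoenzymes of each step of the glycerol 3-phosphate route, stacked by gene, in each wild type (+/+) and knockout (-/-) library. Dgat2 makes up 96.1% to 97.1% of the diacylglycerol acyltransferase bars, and the lipin bars of replicate 1 are the lowest of each genotype.

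Agpat3, Lpin1 and Lpin2 were the tested enzyme genes with a higher knockout value in all 3 same-numbered pairs, a pattern held by 13.2% of tested genes. Their promoters are shown for that reason, as RefSeq windows of 300 bases on GRCm38.p6 from 250 bases before to 50 after an annotated start. Letters of any motif that was searched for are in capitals. Agpat3 is chr10:78351651-78351950 on the minus strand, Lpin1 is chr12:16610917-16611216 on the minus strand, and Lpin2 is chr17:71183282-71183581 on the plus strand, 1 of 3 windows of that gene. The Lpin1 window shows an internal start, well inside the gene, whose annotated 5' end is at 16653903. No other Lpin1 window was available, so the promoter at that end was not searched. The Agpat3 window also lies inside its gene, nearer to the 5' end at 78352497.
Agpat3: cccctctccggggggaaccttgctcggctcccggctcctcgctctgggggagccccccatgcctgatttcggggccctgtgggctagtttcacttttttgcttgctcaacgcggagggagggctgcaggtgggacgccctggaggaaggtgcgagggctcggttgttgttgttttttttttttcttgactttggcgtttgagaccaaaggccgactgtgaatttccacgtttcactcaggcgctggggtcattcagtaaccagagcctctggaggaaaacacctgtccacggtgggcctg
Lpin1: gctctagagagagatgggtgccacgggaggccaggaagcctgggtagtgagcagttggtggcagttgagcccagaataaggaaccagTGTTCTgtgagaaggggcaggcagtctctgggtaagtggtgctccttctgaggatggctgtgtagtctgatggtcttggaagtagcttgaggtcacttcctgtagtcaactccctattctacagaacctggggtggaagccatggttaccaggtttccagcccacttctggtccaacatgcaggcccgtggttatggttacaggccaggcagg
Lpin2: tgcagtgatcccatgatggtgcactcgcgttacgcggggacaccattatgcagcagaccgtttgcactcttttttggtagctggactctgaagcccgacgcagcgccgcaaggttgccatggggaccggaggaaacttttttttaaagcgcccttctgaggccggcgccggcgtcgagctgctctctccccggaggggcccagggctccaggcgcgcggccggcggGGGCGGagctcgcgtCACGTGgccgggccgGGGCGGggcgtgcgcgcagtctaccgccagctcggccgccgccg

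Searched on both strands were the E-box CACGTG, the sterol regulatory element TCACNCCAC, the CCAAT box CCAAT, the GC box GGGCGG and AGAACA, a part of the full glucocorticoid response element. None of them overlapped another in these windows. The Lpin2 window shown held an E-box 9 bases before the start and 2 GC boxes. The Lpin1 window held a single AGAACA, on the other strand, that began 163 bases before its internal start. Of the Lpin2 windows not shown, that from 71204404 held AGAACA, 203 bases before its start, and 3 CCAAT boxes. That from 71183728 held a GC box. The Agpat3 window held none of the 5 motifs. Of all 32851 promoter windows 7.15% held the E-box, 35.7% the GC box, 19.0% AGAACA, 37.4% the CCAAT box and 1.24% the sterol regulatory element. No member window held the sterol regulatory element among the 10 windows of the 7 members matched.

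DGAT enzymes add the last acyl chain. Dgat2, which uses newly made fatty acids in liver, lies on chromosome 7 (99153663 to 99182713, minus strand), 41581106 bases from Cyp2e1 on the same chromosome. It measured 211, 260 and 281 FPKM in knockout replicates 1 to 3 and 238, 238 and 209.7 FPKM in the wild type. The groups overlapped, with knockout replicate 1 and wild type replicate 3 lowest. Its log2 difference of 0.12 did not pass (SE 0.14; 95% interval -0.18 to 0.43; limma, adjusted p = 0.85). Without replicate 1 of both genotypes it was 0.27 (SE 0.08; limma, adjusted p = 0.057).

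Dgat1, an unrelated enzyme with the same reaction, lies on chromosome 15 (76502012 to 76512021, minus strand) and made up 2.89% to 3.85% of DGAT transcripts. It measured 7.52, 9.62 and 9.42 FPKM in the knockout and 9.53, 7.81 and 6.23 FPKM in the wild type. As in Agpat2, the wild type was higher in replicate 1 and the knockout in replicates 2 and 3. Dgat1 differed by 0.16 on the log2 scale (SE 0.17; 95% interval -0.22 to 0.55; limma, adjusted p = 0.84).

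Mogat1, the monoacylglycerol acyltransferase that rises in fatty liver as a PPARγ target, lies on chromosome 1 (78511060 to 78606964, plus strand). It measured 2.15, 2.16 and 1.67 FPKM in the knockout and 4.15, 1.61 and 1.64 FPKM in the wild type. Wild type replicate 1 was 2.55 times the mean of the other wild type libraries and set the sign. The log2 difference was -0.14 (SE 0.25; 95% interval -0.71 to 0.43; limma, adjusted p = 0.93), and 0.19 without wild type replicate 1 (limma, adjusted p = 0.61). Of its merged exon bases 15.4% overlap a gene on the other strand. Whether the counting used strand is not stated, and reads there cannot be told apart. Mogat2, the intestinal enzyme, ranged from 0 to 0.37 FPKM.

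Pnpla3 (chromosome 15, 84167776 to 84189521, plus strand), known to be induced by feeding and carbohydrate through SREBP-1c and ChREBP, was at the floor of the table. It was listed at 0.05, 0.07 and 0 FPKM in the knockout and at 0, 0.09 and 0.02 FPKM in the wild type. It did not pass the filter of 1 FPKM in 3 libraries and no genotype difference can be read at this level. Its exons overlap another annotated gene over 8.0% of their bases.

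**Figure D3:**
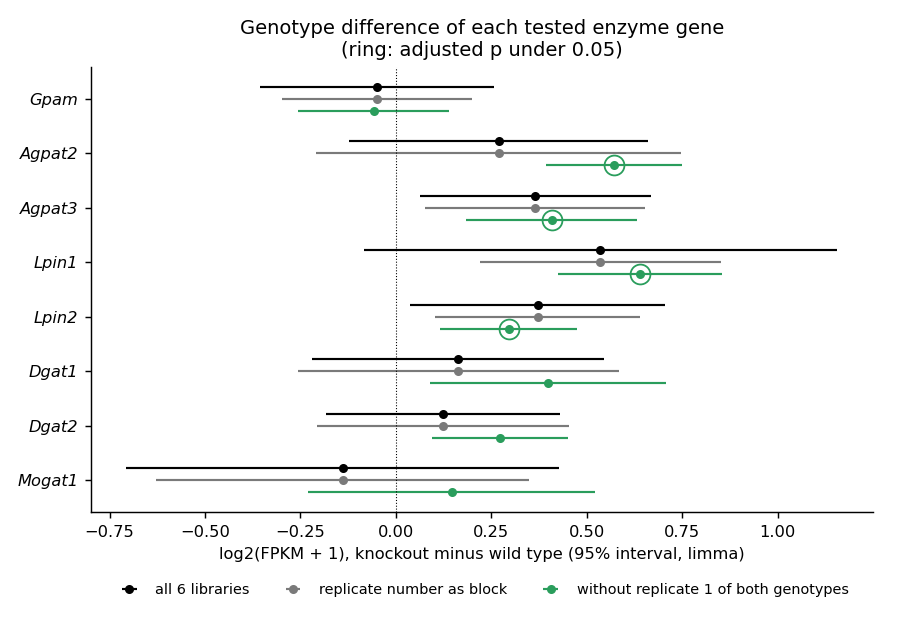
Difference in log2(FPKM + 1), knockout minus wild type (x axis), with 95% intervals from limma for the 8 tested genes, for all 6 libraries, with the replicate number as a block, and without replicate 1 of both genotypes. Rings mark adjusted p under 0.05, which occur without replicate 1 at Agpat2, Agpat3, Lpin1 and Lpin2 and in neither other fit.

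Without replicate 1 of both genotypes, 4 of the 8 genes were higher in the knockout past the threshold, where 6.92% of all tested genes were called in that direction. They were Agpat2 (0.57), Agpat3 (0.41), Lpin1 (0.64) and Lpin2 (0.30), with adjusted p-values of 0.0026, 0.032, 0.0037 and 0.045 (limma, 2 libraries per genotype). With 2 libraries a group the spread is borrowed largely from other genes. In the same libraries 5 of 7 macrophage markers and 1 of 5 endothelial markers fell, where 493 of the 9968 tested genes did. The endothelial marker was Lyve1, at only 0.58 and 0.38 FPKM in the knockout and 1.43 and 2.47 in the wild type. Of 8 hepatocyte markers 2 rose and 1 fell. With sample quality weights 3 of the 8 rose, Agpat2, Agpat3 and Lpin1 (limma, adjusted p = 0.019, 0.042 and 0.046), against 5.99% of tested genes. In that fit 4 of 7 macrophage markers (Adgre1, Cd68, Clec4f and Vsig4) and 1 of 5 endothelial markers (Lyve1) fell, where 554 of the tested genes did. Of 8 hepatocyte markers 1 rose and 1 fell. The part of these markers in the enzyme values was not tested. With the replicate number as a block, none of the 8 passed, against 0.722% of tested genes, and 3 had an unadjusted p under 0.05, all higher in the knockout, against 5.26%.

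By the profile over the 6 libraries, the genes nearest to Lpin1 were Pptc7, a mitochondrial phosphatase, Acot4, an acyl-CoA thioesterase, and Eif4ebp2, a translation repressor. Their mean absolute difference from the centred Lpin1 profile was 0.092, 0.10 and 0.11 on the log2(FPKM + 1) scale, against a median of 0.41 over tested genes. Pptc7 measured 5.07, 9.89 and 12.0 FPKM in the knockout and 4.94, 6.82 and 6.63 FPKM in the wild type, and like Lpin1 was lowest in replicate 1 of each genotype. None of the 3 passed between genotypes (limma, adjusted p = 0.65, 0.58 and 0.77).

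Related genes were taken from 6 lists. Of 7 tested isoenzymes of the same steps none passed. None of 13 genes that supply glycerol 3-phosphate and acyl-CoA passed, with a median log2 difference of 0.02. Its most abundant members were Fabp1, the liver fatty acid binding protein (4470 ± 1735 FPKM in the knockout, 4143 ± 372 in the wild type), and the fatty acid transport protein gene Slc27a2 (863 ± 123 and 737 ± 76.6). Fabp1 was 2468 FPKM in knockout replicate 1 against 5421 and 5521 FPKM in the other knockout libraries. Without replicate 1 of both genotypes Fabp1, Slc27a2 and Gpd1 rose and Cd36 fell.

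Of 11 genes of triglyceride breakdown none passed, and the median was 0.02. The carboxylesterase gene Ces1d, a triglyceride hydrolase, averaged 419 ± 42.4 FPKM in knockout and 297 ± 27.5 in wild type livers, without overlap (log2 difference 0.49; limma, adjusted p = 0.17), and it passed without replicate 1 of both genotypes, without knockout replicate 1 alone and with sample quality weights. The arylacetamide deacetylase gene Aadac averaged 225 ± 15.1 and 278 ± 45.4 FPKM, lower in the knockout and also without overlap (limma, adjusted p = 0.54). Of the 11 genes 2 had all knockout values above the wild type values, against 5.32% of tested genes, and 2 had all of them below. Of the phospholipid branch none of 14 tested genes passed (median -0.01). Chpt1, which makes phosphatidylcholine from diacylglycerol, averaged 129 ± 5.93 FPKM in knockout and 102 ± 14.1 in wild type livers (limma, adjusted p = 0.41); it passed with sample quality weights and without replicate 1 of both genotypes (0.39; limma, adjusted p = 0.032). The phosphatidate phosphatase gene Plpp3 averaged 62.5 ± 7.41 and 58.8 ± 5.14 FPKM.

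Among 13 tested regulators 1 rose, none fell and 12 did not pass, where 47 of the 9968 tested genes rose. Insig2, whose protein holds the SREBP escort SCAP in the endoplasmic reticulum, measured 69.6, 73.5 and 67.1 FPKM in the knockout and 32.7, 35.7 and 34.8 FPKM in the wild type. The groups lay far apart, with a log2 difference of 1.01 (SE 0.11; limma, adjusted p = 0.0026), and so the knockout was higher in 3 of 3 pairs. It passed in all 15 alternatives (limma, adjusted p 3.3e-05 to 0.032). The most abundant other regulator was the LXRα gene Nr1h3 (46.7 ± 2.19 and 49.9 ± 2.05 FPKM).

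Among 9 lipogenic genes 2 fell and 7 did not pass, with a median of -0.63 and 7 estimates below 0. Of the 9968 tested genes 29 fell, and 44.2% had an estimate above 0. At an unadjusted p under 0.05 (limma) 7 of the 9 were lower and 0 higher. Of all tested genes 9.93% reached that level in either direction, and 4.04% reached it with a higher value in the knockout. Thrsp, a lipogenic regulator, measured 386, 401 and 379 FPKM in the knockout and 917, 814 and 845 FPKM in the wild type (log2 difference -1.14, SE 0.12; limma, adjusted p = 0.0014). The glycolytic gene Pklr averaged 47.7 ± 6.22 FPKM in knockout and 86.9 ± 4.2 in wild type livers (log2 difference -0.86; limma, adjusted p = 0.016). That call was lost with no filter on low values (limma, adjusted p = 0.053) and when knockout replicate 2 (0.071), or replicate 2 (0.10) or 3 (0.081) of the wild type, was left out. The difference between the lipogenic list and the assembly enzymes was not tested.

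**Figure D4:**
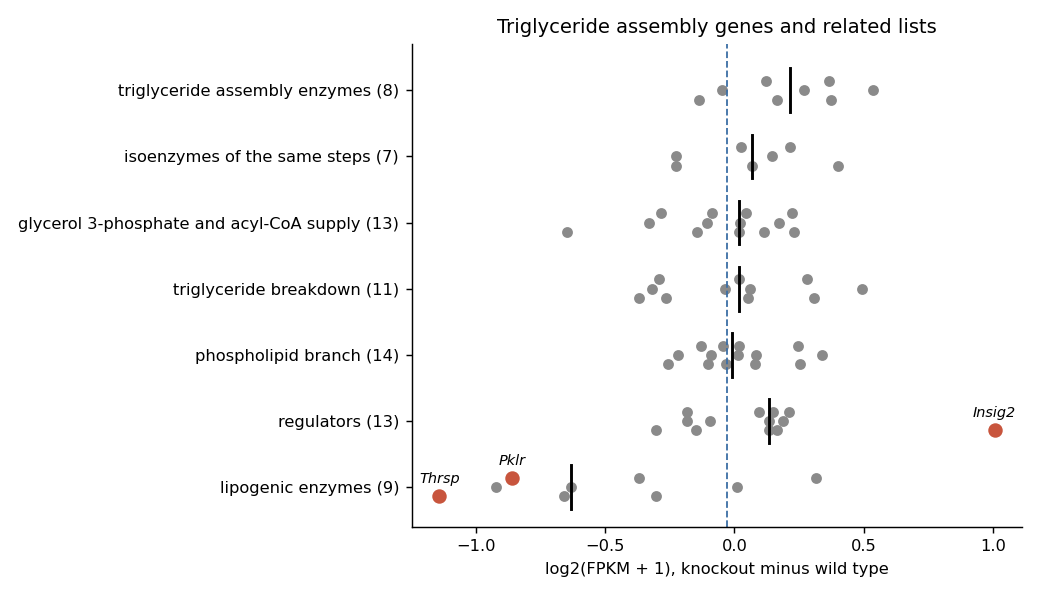
Difference in log2(FPKM + 1), knockout minus wild type (x axis), for each tested gene of the triglyceride assembly set and 6 related lists, with the number tested in parentheses. Black bars are list medians, the dashed line is the median of all tested genes (-0.03), and red points passed the threshold: Insig2 above 0, Pklr and Thrsp below 0.

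In homogenized liver, fewer cells of a type and less RNA per cell cannot be told apart. Of 7 macrophage markers 6 had a lower estimate in the knockout and none passed with all libraries; their summed level was 45.0 to 83.1 FPKM in the knockout and 81.7 to 92.6 in the wild type, lowest in knockout replicates 2 and 3. The 8 hepatocyte markers summed to 49032 to 56086 FPKM in the knockout and 45851 to 53288 in the wild type. Alb alone gave 27497 to 33779 and 24938 to 28840 FPKM of these sums. By estimate 4 of the 8 were higher and 4 lower in the knockout. Of 7 adipocyte markers 4 were among the genes of the expression table. Their sums, nearly all of them Fabp4, which macrophages and endothelium also express, were 7.55 to 10.2 and 6.23 to 9.98 FPKM. The 5 markers of sinusoidal endothelium summed to 51.6 to 71.5 FPKM in the knockout and 47.6 to 65.1 in the wild type. Clec4g was the largest part of these sums, with means of 35.8 ± 8.07 FPKM in the knockout and 28.4 ± 2.06 in the wild type. By estimate Clec4g was higher in the knockout and the other 4 were lower, with a median of -0.25 over the 5. None of the 5 passed with all libraries. The 5 markers of stellate cells summed to 75.8 to 79.8 FPKM in the knockout and 83.5 to 98.4 in the wild type. Pancreatic acinar markers, of which 2 of 5 were in the expression table, summed to at most 1.23 FPKM. The part of these shifts in the enzyme values was not tested.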

How the data were processed

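RNA was extracted from homogenized liver and sequenced as TruSeq libraries, per the labels' protocols. The submitters' processing notes name HISAT and mm10. Program and annotation behind the values: not given in the sources used here. Per the file headers, the authors deposited FPKM for 15960 genes, to 2 decimals; without counts, limma was run on the log scale.

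The 9968 genes reaching 1 FPKM in 3 or more of 6 libraries were tested with limma 3.58.1 (trended eBayes) in R 4.3.3 on log2(FPKM + 1), a scale that understates changes of low genes. P-values were adjusted over all tested genes by Benjamini-Hochberg, with a threshold of 0.05. Differences are knockout minus wild type. Named genes are the 9 enzymes, their isoenzymes, and in each list those past the threshold and the 2 most abundant, plus the 3 genes nearest in profile to the enzyme with the largest difference. Some cell type markers are also named, among them Alb, Adipoq, Fabp4, Clec4g and Dcn. Members and lists were chosen with earlier results of these data known. The labels do not say whether libraries come from separate animals, so p-values measure the spread between these libraries.

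Replicate numbers come from the sample titles. Deviations from the group mean correlated at 0.30, 0.198 and 0.157 for replicates 1, 2 and 3 over tested genes. All were over 0.1, so the numbers were treated as pairing the libraries in an alternative fit with the replicate as a block. Knockout replicate 3 and wild type replicate 2, of different numbers, correlated at 0.212, above the same-numbered values of replicates 2 and 3, so the match of these libraries by number is less clear than that of replicate 1.

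The table gives no depth. Low values of short single-transcript genes (450 to 1200 bases) were searched for the steps that whole fragments would leave. Of 132 to 157 such values per library, 64.9% to 73.4% were less than 0.15 steps from a whole number, where chance gives 30% at a fixed step size. The step size was fitted to the same values, so 30% understates what chance would give. These shares are too low to recover counts, so depth is taken as unknown. Positions and promoters are from RefSeq on GRCm38.p6, the assembly that mm10 names. Positions were matched by gene identifier for all 9 enzymes and promoter windows for 7; exon overlap is from GENCODE M21.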

Additional observations from a re-analysis of the deposited data

How the results depend on the processing

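Of 9968 tested genes 47 were higher and 29 lower in the knockout, and this count depended on the setting: 25 and 7 with no filter on low values, 22 and 14 with a filter at 5 FPKM, 18 lower with eBayes without trend, 597 and 554 with sample quality weights, and 690 and 493 without replicate 1 of both genotypes. Leaving out each library in turn gave 21 to 124 higher and 8 to 87 lower. The log2 difference ran from -0.143 to 0.036 for Gpam and from -0.305 to 0.19 for Mogat1 over single libraries left out. The number of triglyceride assembly genes called was 0 in 13 of the 15 alternatives, among them every library left out alone, 3 with sample quality weights and 4 without replicate 1 of both genotypes. The quality weights are estimated from the same values. Gpam turned sign without knockout replicate 1 (0.036) or wild type replicate 2 (0.019). Mogat1 turned sign with sample quality weights (0.13), without replicate 1 of both genotypes (0.15) and without wild type replicate 1 (0.19); it was not tested with the filter at 5 FPKM. The other 6 tested enzymes kept a positive estimate in all 15 alternatives. With the replicate block 42 genes were higher and 30 lower, none of the enzymes passed, and no call in the related lists changed.

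In the related lists, isoenzymes had 1 call with sample quality weights and 1 without replicate 1 of both genotypes, supply genes 2 and 4, breakdown genes 1 and 2, the phospholipid branch 1 and 1, and lipogenic genes 6 and 6. These lists held 7, 13, 11, 14 and 9 tested genes, in that order. Of all 9968 tested genes, 597 rose and 554 fell with sample quality weights. Without replicate 1 of both genotypes 690 rose and 493 fell. Whether any list held more calls than tested genes in general was not tested. Lipogenic genes had 1 call with no filter. Leaving out single libraries gave 0 to 1 call for isoenzymes, 0 to 1 for breakdown genes, and 1 to 4 for lipogenic genes. The cause was not tested. With 3 libraries a group, the 95% interval of 6 of the 8 tested enzymes held 0.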
